A study of Rattus norvegicus with 24 samples.

Results

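The superoxide dismutase genes Sod1, Sod2 and Sod3, the catalase gene Cat and the glutathione peroxidase genes Gpx1, Gpx3 and Gpx4 were followed in germ cells of young and aged rats. Members were all probe sets that the platform annotation assigns to 1 of these 7 symbols and to no other gene, which gave 8 of the 31042 probe sets tested, 1 per gene and 2 for Gpx4. RNA had been measured on 24 Affymetrix rat arrays, in 4 groups of 6: pachytene spermatocytes of aged (18 months) and of young (4 months) Brown Norway rats, and round spermatids of aged and of young rats. All rats are of this 1 inbred strain and the labels name no treatment and no genetic change. Pachytene spermatocytes recombine their chromosomes before the meiotic divisions, and round spermatids are the haploid products of those divisions. Both were enriched from testis digests by sedimentation in a density gradient. The labels give a purity above 83%, so each fraction can hold other testis cells, and in such bulk fractions fewer cells of a type and less RNA per cell cannot be told apart.

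Superoxide dismutases turn superoxide into hydrogen peroxide and oxygen, and catalase and the glutathione peroxidases then remove the peroxide. Catalase works without a cosubstrate in peroxisomes, while glutathione peroxidases spend glutathione, which glutathione reductase regenerates with NADPH. In the testis Gpx4, which reduces lipid peroxides, also becomes a structural protein of the sperm midpiece, and Gpx1, Gpx3 and Gpx4 are selenoproteins.

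Probe sets are called by gene here, and levels are log2 signals, where a difference of 1 is a doubling. Age comparisons used arrays that were quantile normalized within a cell type, so a change is relative to the whole distribution of the array. Before this scaling the typical probe set differed between aged and young arrays by -0.24 in the pachytene fraction and by 0.14 in the round spermatid fraction. Comparisons across cell types used a separate scale, after an offset had been added to the pachytene values. Absent control probe sets read 4.19 and 4.38 in aged and young pachytene arrays but 6.90 and 6.77 in aged and young round spermatid arrays. Germ cell markers followed the labels: 10 of 11 pachytene markers were lower in round spermatids than in pachytene spermatocytes, and 17 of 17 late spermiogenesis markers were higher. The leading principal component of the pachytene arrays held 73.9% of their variance and set young rats 1, 10 and 11 away from the rest, so the member changes in pachytene spermatocytes are also given without these 3 rats. In the round spermatid arrays it held 62.2% and set young rat 10 furthest apart (-40.7). Young rats 11, 13 and 1 followed at -18.7, -13.9 and -9.8. Some round spermatid results are also given without rats 1, 10 and 11. Fewer young arrays remain in such a fit, so a lost call need not mean that it rested on these rats.

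The genes lie on different chromosomes of the RefSeq assembly GRCr8. Sod1 is at chr11:42942742-42948399, Sod2 at chr1:50043323-50050168, Sod3 at chr14:62822865-62828602 and Cat at chr3:110297340-110329526. Gpx1 is at chr8:117905462-117906588, Gpx3 at chr10:39529335-39537406 and Gpx4 at chr7:10300833-10303629. The 250 bases before an annotated transcript start were read for the 6 of 7 genes that the promoter table lists, which leaves out Sod3. Those of Sod1 and Gpx1 are shown because both transcripts fell with age in pachytene spermatocytes, and the window before the most upstream of the 3 listed Gpx4 starts because the brightest member probe set is that of Gpx4. Capitals mark the TATA box (TATAAA), the CCAAT box (CCAAT), the core and the full form of the cyclic AMP response element (TGACG and TGACGTCA, of which the core is part of the full form) and the antioxidant response element core (TGACNNNGC), each searched on both strands. The sequences are given 5′ to 3′ on the strand of the gene.
Sod1, chr11:42942573-42942822, plus strand: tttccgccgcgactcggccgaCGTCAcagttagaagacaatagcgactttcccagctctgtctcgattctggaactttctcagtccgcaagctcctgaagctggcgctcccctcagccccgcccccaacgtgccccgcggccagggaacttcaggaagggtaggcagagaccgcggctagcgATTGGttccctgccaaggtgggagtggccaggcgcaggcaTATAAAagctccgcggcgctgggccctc
Gpx1, chr8:117905212-117905461, plus strand: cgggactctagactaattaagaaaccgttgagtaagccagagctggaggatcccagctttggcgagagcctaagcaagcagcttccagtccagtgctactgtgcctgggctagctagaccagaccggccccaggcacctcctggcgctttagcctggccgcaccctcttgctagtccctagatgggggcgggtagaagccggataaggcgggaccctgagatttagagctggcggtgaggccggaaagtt
Gpx4, chr7:10303630-10303879, minus strand: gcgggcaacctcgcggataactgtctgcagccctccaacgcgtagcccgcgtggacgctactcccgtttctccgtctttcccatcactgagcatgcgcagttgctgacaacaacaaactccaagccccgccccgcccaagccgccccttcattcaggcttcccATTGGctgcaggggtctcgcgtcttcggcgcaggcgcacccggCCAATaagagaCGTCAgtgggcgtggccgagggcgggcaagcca
The Sod1 window held a TATA box 28 bases before the transcript start, a CCAAT box on the other strand at 68 bases and a cyclic AMP response element core on the other strand at 229 bases. The annotated Sod1 gene begins inside this window. The Gpx1 window held none of the 5 capitalised motifs. The Gpx4 window held CCAAT boxes at 87 and 44 bases and a cyclic AMP response element core at 33 bases. Among 33469 windows of 27457 rat genes, 12.9% held a TATA box, 34.0% a CCAAT box, 18.2% a cyclic AMP response element core and 1.59% its full form. The antioxidant response element core, held by 10.1% of windows, was found among the member genes in the Sod2 window, at 35 bases. A GC box (GGGCGG), held by 30.5% of windows and not capitalised, was present in the windows of Sod1, Sod2, Gpx1 and Gpx3 and in the first 2 of Gpx4. These matches describe the letters in the windows and were not tested against the expression values.

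In pachytene spermatocytes of aged rats the transcripts of Sod1, Sod3 and Gpx1 were lower than in young rats, by 2.03-fold, 1.87-fold and 1.42-fold, and in each case all 6 aged rats lay below all 6 young rats. Sod2 and the bright Gpx4 probe set had nearly the same mean in both ages. By limma with Benjamini-Hochberg adjustment over 31042 probe sets, 3 of 8 member probe sets fell and 1, the dim Gpx4 probe set, rose. Over all probe sets 37.5% were called in this comparison, 15.4% as lower and 22.1% as higher. On the deposited scale, where the typical change was -0.24 and 19153 probe sets were called in all, the split was 6 member probe sets lower and 0 higher. These calls measure the spread between numbered samples, and the labels do not describe the animals further.

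Sod1 (1367641_at), the copper and zinc dismutase of the cytosol, lay at 11.10, 11.25 and 11.67 (lowest, median and highest of 6) in aged pachytene spermatocytes, against 11.73, 12.27 and 13.09 in young ones. The ranges did not touch, and the young rats spread far more widely than the aged ones. The mean was 11.30 ± 0.20 in aged and 12.32 ± 0.52 in young rats (SD, n = 6 each), a log2 change of -1.02 (SE 0.20, limma adjusted p = 0.00283). By rank within its own array, which does not depend on scaling, Sod1 exceeded 92.0% to 94.7% of probe sets on aged arrays and 94.97% to 98.6% on young arrays. Without young rats 1, 10 and 11, the 3 highest, the change was -0.58 (limma adjusted p = 0.00305).

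Sod2 (1370172_at), the manganese dismutase of mitochondria, lay at 10.41, 10.45 and 10.51 in aged and at 10.25, 10.47 and 10.57 in young pachytene spermatocytes. The aged rats fell within the range of the young ones. The change was -0.0014 with a 95% confidence interval of -0.12 to 0.12 (limma adjusted p = 0.987), and on the deposited scale it was -0.18 (limma adjusted p = 0.0266). Without young rats 1, 10 and 11 it was -0.086 (limma adjusted p = 0.204). Sod3 (1368322_at), the secreted dismutase, lay at 6.98, 7.37 and 7.52 in aged rats, against 7.80, 8.17 and 8.87 in young rats. Every aged value was below every young value, with young rat 1 the highest. The mean was 7.31 ± 0.19 in aged and 8.22 ± 0.37 in young rats, a change of -0.91 (SE 0.15, limma adjusted p = 0.00119), and -0.65 without the 3 young rats (limma adjusted p = 0.00162).

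Cat (1367995_at) lay at 7.38, 7.61 and 7.81 in aged and at 7.54, 7.93 and 8.63 in young pachytene spermatocytes. The ages overlapped, with 3 aged rats below all young ones. The change of -0.34 (SE 0.16) did not pass the test (95% confidence interval -0.68 to 0.0082, limma adjusted p = 0.113). It passed on the deposited scale (-0.76, limma adjusted p = 0.00659), when arrays were centred on hybridization controls (-0.64, limma adjusted p = 0.0103) and without young rat 2 (-0.42, limma adjusted p = 0.0484). It was -0.20 without young rat 1 (limma adjusted p = 0.196) and -0.12 without young rats 1, 10 and 11.

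Gpx1 (1367576_at), the glutathione peroxidase of cytosol and mitochondria, lay at 8.31, 8.55 and 8.61 in aged pachytene spermatocytes, against 8.70, 8.99 and 9.55 in young ones. The ranges were apart by less than the spread of the young rats. The mean was 8.52 ± 0.10 in aged and 9.02 ± 0.31 in young rats, a change of -0.50 (SE 0.12, limma adjusted p = 0.00708), and -0.39 without the 3 young rats (limma adjusted p = 0.00342). Gpx3 (1369926_at), the secreted peroxidase of plasma, lay at 7.08, 7.30 and 7.55 in aged and at 7.06, 7.30 and 7.55 in young rats. The groups covered nearly the same range, and the change was 0.028 (95% confidence interval -0.17 to 0.22, limma adjusted p = 0.834), while on the deposited scale it was -0.37 (limma adjusted p = 0.0176) and without the 3 young rats 0.0012 (limma adjusted p = 0.994).

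The 2 probe sets of Gpx4 differed in their response. The bright one (1386871_at) averaged 14.58 ± 0.03 in aged and 14.59 ± 0.04 in young pachytene spermatocytes, above 99.9% of the probe sets of every array, so a change near the top of the scale could be compressed. Its change was -0.0059 (95% confidence interval -0.091 to 0.079, limma adjusted p = 0.92), but turned to 0.33 and passed with median centring (limma adjusted p = 0.00219). Without the 3 young rats it was 0.0018 (limma adjusted p = 0.981). The dim one (1391529_at) lay at 7.88, 8.16 and 8.25 in aged rats, against 7.54, 7.85 and 7.97 in young rats, and 5 of 6 aged rats were above all young ones. Its change of 0.30 (SE 0.08, limma adjusted p = 0.0158) turned to -0.022 with hybridization controls and -0.14 on the deposited scale, and did not pass without the 3 young rats (0.19, limma adjusted p = 0.12). Which transcripts the 2 probe sets read could not be settled from the annotation used here.

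**Figure D1:**
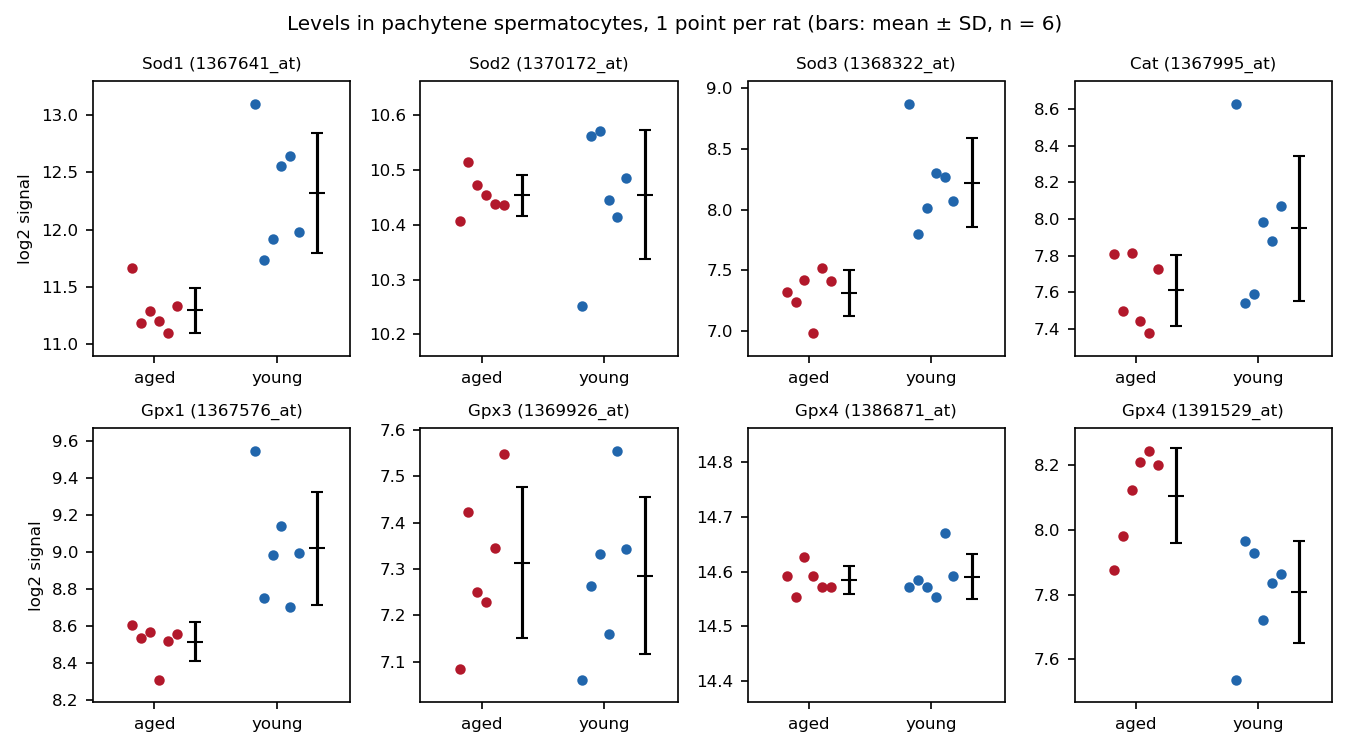
Log2 signal (y axis, quantile normalized within pachytene spermatocytes) of each member probe set in aged and young rats; each point is 1 rat and the bars give the mean and SD of 6. The aged points of Sod1, Sod3 and Gpx1 all sit below the young ones, those of Sod2, Gpx3 and the bright Gpx4 probe set overlap.

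Marker genes of other cells moved with age in the same fractions. Of 23 Sertoli cell markers, which stand for the somatic nurse cells of the tubule, 19 were lower and 1 was higher in aged than in young pachytene arrays. Their mean log2 signal was 9.12 ± 0.13 (8.96 to 9.26) in aged and 9.88 ± 0.26 (9.65 to 10.31) in young rats, and their summed linear signal was 29012 to 39027 in aged and 56877 to 98169 in young rats. No marker is at 0 on this scale, and 17 to 18 of the 23 were above the array median in aged rats and 19 to 20 in young rats.

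Of 17 late spermiogenesis markers, 14 were lower and 1 was higher in aged pachytene arrays. All 17 were higher in round spermatids than in pachytene spermatocytes, so they do not mark later spermatids alone. Their mean was 12.53 ± 0.19 (12.38 to 12.89) in aged and 13.22 ± 0.47 (12.73 to 13.88) in young rats, with all 17 above the array median on every array. Their summed linear signal was 148216 to 198430 in aged and 184899 to 339525 in young rats. Young rats 1, 10 and 11 had the highest Sod1 (13.09, 12.55 and 12.64) and the highest late marker means (13.88, 13.44 and 13.54). Among aged rats, rat 2 had both the highest Sod1 and the highest late marker mean, and young rat 1 had both the highest Sod3 and the highest Sertoli marker mean. Of the other lists, 5 of 12 spermatogonia markers, 5 of 11 round spermatid and acrosome markers and 4 of 12 Leydig cell markers were lower, with 0, 1 and 1 higher. The pachytene markers were even, with 2 of 11 higher and 2 lower. Peritubular myoid cell markers had 4 of 13 higher and 1 lower, and endothelial and blood cell markers 3 of 9 higher and 1 lower. Macrophage markers had 2 of 16 higher and 2 lower, with a summed linear signal of 3769 to 4775 in aged and 4484 to 11797 in young rats. The sum was highest in young rats 1, 10 and 11 (11797, 8096 and 8752). The part of these cells in the lower Sod1, Sod3 and Gpx1 was not tested.

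**Figure D2:**
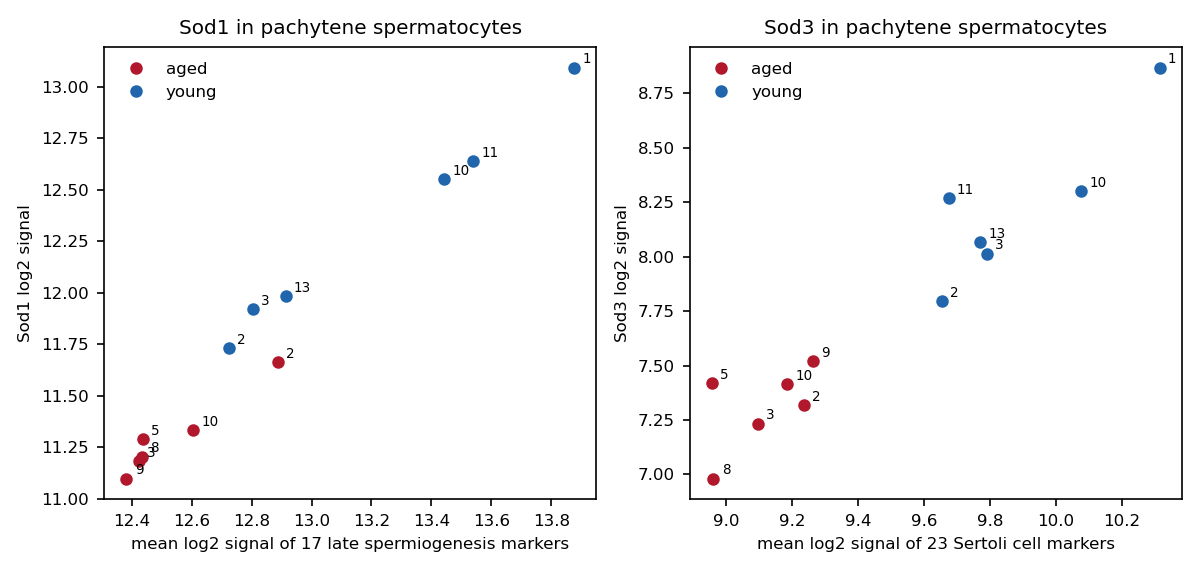
Left, Sod1 log2 signal (y axis) against the mean log2 signal of 17 late spermiogenesis markers (x axis) in pachytene spermatocytes; right, Sod3 against the mean of 23 Sertoli cell markers. Each point is 1 numbered rat, and aged rats lie to the lower left, with aged rat 2 inside the young range of late markers.

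In round spermatids the aged and young rats were close for nearly all members. Sod1 was 1.17-fold lower in aged rats and was the 1 of 8 member probe sets past the test, in a comparison where 17.1% of all probe sets were called, 8.54% as lower and 8.6% as higher. The remaining 7 probe sets had changes between -0.15 and 0.043. On the deposited scale, where the whole distribution was shifted upward and 17172 probe sets were called in all, 3 member probe sets were called higher and 1 lower.

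Sod1 lay at 13.17, 13.31 and 13.39 in aged round spermatids, against 13.38, 13.58 and 13.64 in young ones. The ranges overlapped at their edge, and 4 of 6 aged rats were below all young rats. The mean was 13.30 ± 0.09 in aged and 13.53 ± 0.11 in young rats, a change of -0.23 (SE 0.05, limma adjusted p = 0.0106). The call did not hold without young rats 1, 10 and 11 (-0.15, limma adjusted p = 0.162) or with hybridization controls (-0.14, limma adjusted p = 0.181). Those rats were picked on the pachytene arrays, and fewer young arrays remain without them. In these arrays 11 of 23 Sertoli markers and 5 of 17 late spermiogenesis markers were lower in aged rats, none of either list was higher, and 5 of 11 pachytene markers were higher. The part of these cells in the lower Sod1 was not tested.

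Gpx1 spread the most in round spermatids, at 8.33, 8.62 and 9.36 in aged and at 8.43, 8.82 and 9.18 in young rats. The change of -0.15 had a 95% confidence interval of -0.53 to 0.22 (limma adjusted p = 0.614), so a change as large as that in pachytene spermatocytes lay within it. Aged rat 5 and young rats 13 and 10 had the highest Gpx1 of their age (9.36, 9.18 and 9.16). They also had the highest means of 16 macrophage markers (8.88, 8.76 and 8.79). Aged rat 9 had the lowest of both (8.33 and 8.36). Of these markers 0 were called higher and 1 lower in aged round spermatids. The part of macrophages in the spread of Gpx1 was not tested. Sod3 gave 7.73, 7.83 and 7.99 in aged and 7.71, 7.80 and 7.92 in young rats, and its change was 0.031 (95% confidence interval -0.068 to 0.13, limma adjusted p = 0.718). That interval does not reach the change seen in pachytene spermatocytes, but Sod3 stood only 1.005 and 0.96 above the absent controls in aged and young round spermatids. Cat stood equally close to them, at 0.99 and 0.96, and its change was 0.018 (95% confidence interval -0.16 to 0.20).

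The changes of Sod2 (0.043), Gpx3 (0.018), the bright Gpx4 probe set (-0.023) and the dim one (0.0083) all had intervals that crossed 0. The widest of these, for Sod2, ran from -0.065 to 0.15. Over 20 alternatives of scaling, model and rats, Sod2 passed in 2 (lowest limma adjusted p = 0.00736). Sod3 and each Gpx4 probe set passed in 1, and Gpx3 in 0. Gpx3 stood only 1.31 and 1.28 above the absent controls in aged and young round spermatids, and the dim Gpx4 probe set 1.49 and 1.46. The bright Gpx4 probe set averaged 14.95 ± 0.03 in aged and 14.97 ± 0.01 in young round spermatids, again near the top of the scale.

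**Figure D3:**
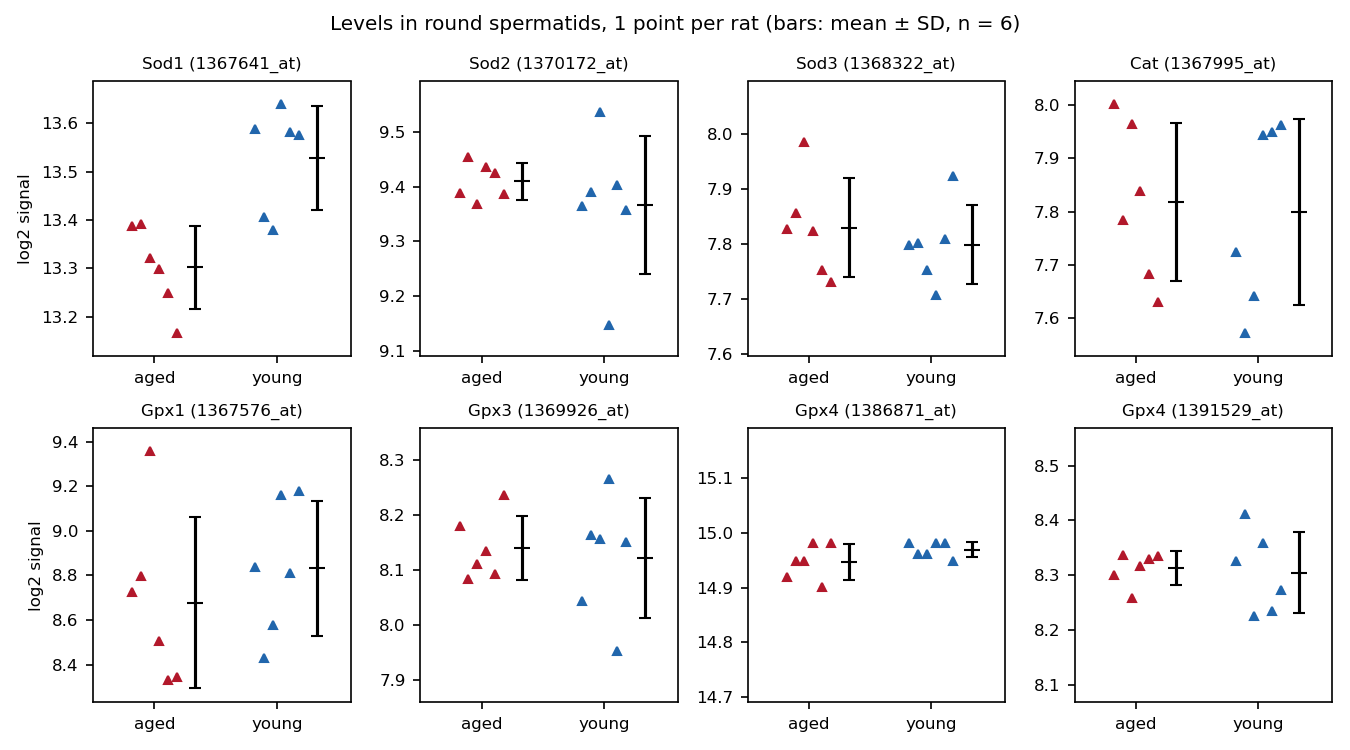
Log2 signal (y axis, quantile normalized within round spermatids) of each member probe set in aged and young rats; each point is 1 rat and the bars give the mean and SD of 6. Sod1 is the probe set whose aged and young points come nearest to separating, with 4 of 6 aged rats below all young ones.

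Whether the age change differed between the 2 cell types was tested as the change in round spermatids minus the change in pachytene spermatocytes, on the scale shared by all 24 arrays. Sod1 and Sod3 passed, so 2 of 8 member probe sets were called, against 13.1% of all probe sets, 5.97% above 0 and 7.09% below. On the deposited scale with the offset, 7 of 8 member probe sets were called, all above 0, and 25120 probe sets in all. For Sod1 the age change was -0.23 in round spermatids and -1.14 in pachytene spermatocytes, a difference of 0.91 (95% confidence interval 0.41 to 1.42, limma adjusted p = 0.0167). For Sod3 the changes were 0.041 in round and -0.52 in pachytene cells, a difference of 0.56 (0.31 to 0.80, limma adjusted p = 0.00367). Sod3 stood only 1.005 and 0.96 above the absent controls in aged and young round spermatids, so a fall there could be hard to see. Without young rats 1, 10 and 11 the differences were 0.50 for Sod1 (limma adjusted p = 0.0362) and 0.36 for Sod3 (limma adjusted p = 0.0306). The late spermiogenesis and Sertoli markers differed in the same direction, with 10 of 17 and 8 of 23 called, and their part was not tested.

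For Gpx1 the difference was 0.20 with an interval of -0.27 to 0.67 (limma adjusted p = 0.607), so the fall in pachytene spermatocytes was not shown to be particular to them. It was 0.063 without aged rat 5 and 0.12 without young rat 1, and passed on the deposited scale with the offset (0.79, limma adjusted p = 0.00488). Cat gave 0.22 (-0.099 to 0.54, limma adjusted p = 0.372), which was 0.12 without young rat 1 and passed on the deposited scale with the offset (0.70, limma adjusted p = 0.00276). The dim Gpx4 probe set gave -0.16 (-0.30 to -0.029, limma adjusted p = 0.0964). For Sod2, Gpx3 and the bright Gpx4 probe set the differences were between -0.018 and 0.046. Each passed in 1 of 20 alternatives (limma adjusted p = 0.00156, 0.00245 and 0.000371). Over these alternatives Sod2 reached 0.43, Gpx3 0.39 and the bright Gpx4 probe set -0.35.

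**Figure D4:**
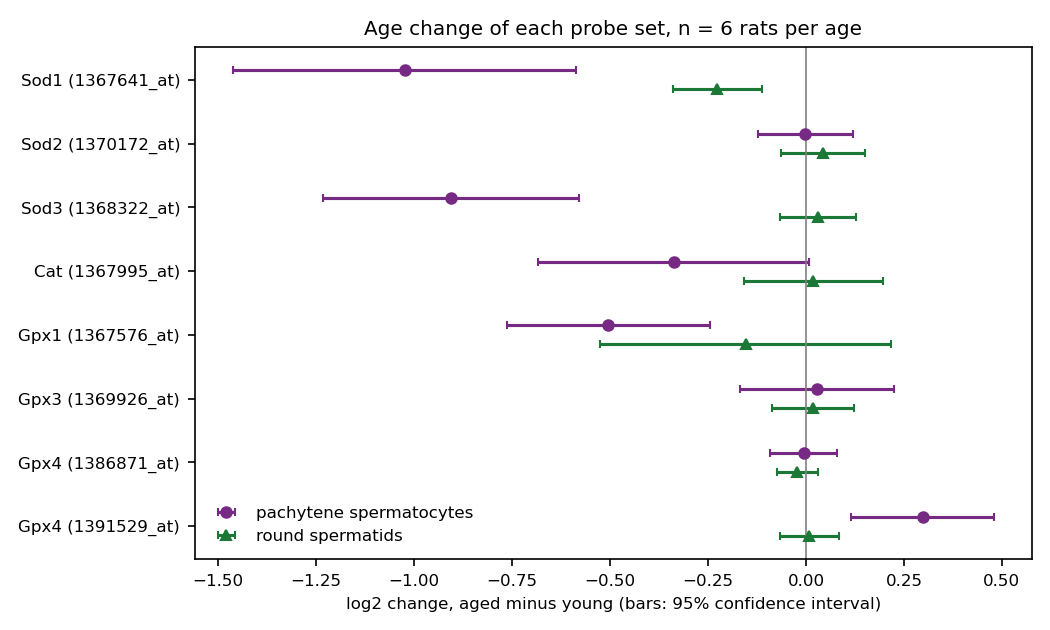
Age change in log2 signal (x axis, aged minus young) of each member probe set, with 95% confidence intervals, in pachytene spermatocytes (circles) and round spermatids (triangles), 6 rats per age. In pachytene spermatocytes the intervals of Sod1, Sod3 and Gpx1 lie left of 0 and that of the dim Gpx4 probe set right of 0. Cat also lies left of 0 there, but its interval reaches 0.0082. In round spermatids the interval of Sod1 alone excludes 0.

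Between the cell types, Sod1 showed the largest difference of the 8, at 2.98-fold higher in round spermatids than in pachytene spermatocytes. Sod2 was 1.52-fold lower in round spermatids, and Gpx3, a dim probe set, was 1.33-fold higher. All 8 member probe sets passed the test, 5 higher and 3 lower in round spermatids, where 85.1% of all probe sets were called, 46.9% as higher and 38.2% as lower. The split was 3 higher and 5 lower on the deposited scale with the offset kept, where the typical probe set differed by -0.0053. Differences of dim probe sets depend on the offset that brought the controls of both cell types together.

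Markers of other testis cells also differed between the fractions. Of 23 Sertoli cell markers 20 were lower and 3 higher in round spermatids, with a summed linear signal of 8140 to 16069 in round spermatids and 29397 to 101325 in pachytene spermatocytes. Macrophage markers were higher in 15 of 16 and lower in 0, with sums of 14262 to 20530 in round spermatids and 4749 to 13368 in pachytene spermatocytes. Peritubular myoid cell markers were higher in 11 of 13 and lower in 1, with sums of 5581 to 7456 in round spermatids and 3284 to 4716 in pachytene spermatocytes. Spermatogonia markers were higher in 7 of 12 and lower in 3, and Leydig cell markers higher in 3 of 12 and lower in 7. No marker is at 0 on this scale, and the part of these cells in the member differences was not tested.

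Sod1 averaged 13.36 ± 0.15 in round spermatids and 11.78 ± 0.73 in pachytene spermatocytes (SD, n = 12 arrays each), a difference of 1.57 (SE 0.12, limma adjusted p = 2.63e-11). The order of the group means was young round spermatids (13.47), aged round spermatids (13.24), young pachytene spermatocytes (12.35) and aged pachytene spermatocytes (11.21). Only the last step was free of overlap, since young rat 1 reached 13.17 in its pachytene fraction. The difference between cell types was 2.03 in aged rats and 1.12 in young rats.

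Sod2 averaged 9.69 ± 0.09 in round spermatids and 10.29 ± 0.09 in pachytene spermatocytes, a difference of -0.60 (SE 0.04, limma adjusted p = 2.01e-13). All 12 round spermatid arrays were below all pachytene arrays, while within a cell type the ages overlapped. Sod2 thus ran opposite to Sod1 between the stages, and it kept its sign in each of 21 alternatives, from -1.15 to -0.58.

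Sod3 stood higher in young pachytene spermatocytes (8.42 ± 0.24) than in the other 3 groups, whose means were 7.901 for aged pachytene spermatocytes, 7.898 for aged round spermatids and 7.86 for young round spermatids and whose ranges overlapped. The difference between cell types was -0.28 over both ages (limma adjusted p = 0.000116) and -0.0033 in aged rats alone (limma adjusted p = 0.958). For Cat the 4 groups ran from 8.25 in young pachytene spermatocytes through 8.06 in aged ones to 7.88 and 7.86 in aged and young round spermatids. Each step overlapped, and the difference between cell types of -0.28 (limma adjusted p = 0.00166) was -0.17 in aged rats alone (limma adjusted p = 0.0501).

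The peroxidases Gpx3 and Gpx4 were higher in round spermatids. Gpx3 averaged 8.30 ± 0.11 in round spermatids and 7.89 ± 0.08 in pachytene spermatocytes, and the 12 arrays of each did not overlap (difference 0.41, SE 0.04, limma adjusted p = 2.08e-09). In the deposited values Gpx3 stood only 1.31 and 1.28 above the absent controls in aged and young round spermatids. In aged and young pachytene arrays it stood 2.92 and 3.11 above them. Measured from these controls the order was reversed, so the comparison depends on how background is handled. The difference after normalization kept its sign and call in each of 21 alternatives, from 0.17 to 0.52, no offset among them. The bright Gpx4 probe set averaged 14.87 ± 0.02 in round spermatids and 14.65 ± 0.04 in pachytene spermatocytes, again without overlap (0.22, SE 0.02, limma adjusted p = 2.44e-12). The dim Gpx4 probe set was 0.28 higher (limma adjusted p = 2.92e-08), but turned to -0.036 with median centring and -0.094 on the deposited scale. Gpx1 overlapped in every step, and its difference of 0.25 (limma adjusted p = 0.0474) turned to -0.24 with median centring and -0.30 on the deposited scale and lost its call without any 1 of 7 rats.

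**Figure D5:**
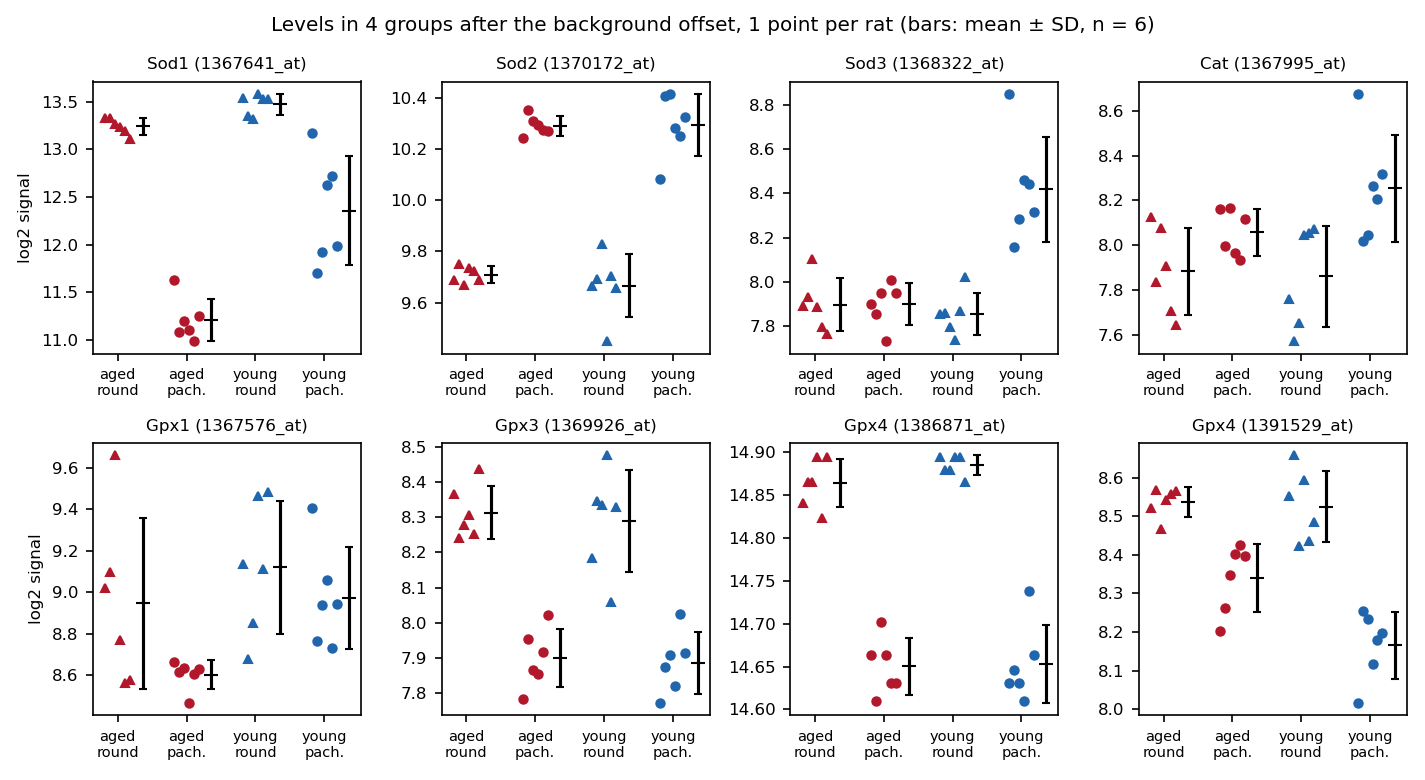
Log2 signal (y axis, after the background offset and quantile normalization of 24 arrays) of each member probe set in round spermatids (triangles) and pachytene spermatocytes (circles, labelled pach.) of aged (red) and young (blue) rats; points are rats, bars give the mean and SD of 6. Sod1 in young pachytene spermatocytes spans 11.70 to 13.17, while the round spermatids of both ages stay above 13.

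Partner genes of these enzymes moved in both directions. Of the 41 pathway genes called with age in pachytene spermatocytes, 23 also passed without young rats 1, 10 and 11. Among them was each gene named below as changed there, except Keap1. Among the named genes that passed, the changes that shrank by over 1.5 times in that fit were those of Ccs (0.26), Prdx4 (-0.54), Ggt7 (0.56), Scly (0.33) and Nfe2l2 (0.31). Of the 25 called in round spermatids, 3 also passed without these rats, in a fit with fewer young arrays. Ccs, the chaperone that loads copper into Sod1, averaged 10.88 ± 0.06 in aged and 10.41 ± 0.29 in young pachytene spermatocytes, a rise of 0.48 (limma adjusted p = 0.00611). In round spermatids Ccs was 0.34 higher in aged rats (limma adjusted p = 0.0143), a call that did not hold without young rats 1, 10 and 11 (0.22, limma adjusted p = 0.0606) or with median centring (0.45, limma adjusted p = 0.0571). The copper transporters moved the other way in aged pachytene spermatocytes: Slc31a1, the importer at the cell surface, fell by 0.61 (limma adjusted p = 0.00103) and Atp7a, a copper pump, fell by 0.96 (limma adjusted p = 0.00198). Of 19 measured genes of metal supply and peroxisomal import, 4 rose and 4 fell in aged pachytene spermatocytes. Among all 14217 genes 25.5% were higher and 19.3% lower.

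Peroxiredoxins, a further family of peroxide-reducing enzymes, and their thioredoxin partners had 5 of 12 genes lower and 2 higher in aged pachytene spermatocytes. Prdx2 fell by 1.19 (limma adjusted p = 0.000693), Prdx4 by 1.16 (limma adjusted p = 0.0076), Prdx3 by 0.57 and Prdx6 by 0.41. Prdx6 did not pass with median centring (-0.18, limma adjusted p = 0.127). In aged round spermatids 2 of 12 were lower and 1 was higher, where 12.7% of all 14217 genes were lower and 12.1% higher. Srxn1, which repairs overoxidised peroxiredoxins, was 0.63 lower there (limma adjusted p = 0.00411). Prdx4 was 0.30 lower, a call that did not hold without the 3 young rats (-0.23, limma adjusted p = 0.111) or with hybridization controls (-0.19, limma adjusted p = 0.0957). Prdx2 passed the test of the difference between cell types (1.01, limma adjusted p = 0.00867), as Sod1 and Sod3 did.

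For glutathione supply, 3 of 16 genes rose and 3 fell in aged pachytene spermatocytes. Ggt7, of the gamma-glutamyl transferase family, was 1.03 higher (limma adjusted p = 0.00301), Gss, glutathione synthetase, was 0.36 higher but turned to -0.079 on the deposited scale, and Tkt, transketolase, was 0.58 lower. Gsr, glutathione reductase, had a change of -0.21 in pachytene spermatocytes (limma adjusted p = 0.138) and -0.046 in round spermatids (limma adjusted p = 0.405). Nnt, which makes NADPH in mitochondria, was 0.46 higher in aged round spermatids (limma adjusted p = 0.0083), but not past the test without the 3 young rats (0.33, limma adjusted p = 0.0705). In those cells 4 of 16 genes rose and 2 fell.

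Genes that make selenoproteins had 5 of 13 higher and 1 lower in aged pachytene spermatocytes. Secisbp2, which reads the selenocysteine signal, was 0.34 higher, turning to -0.035 on the deposited scale and not passing with hybridization controls (0.083, limma adjusted p = 0.364), and Scly, which frees selenium from selenocysteine, was 0.84 higher. Lrp8, a receptor for selenoprotein P in the testis, fell by 1.02 (limma adjusted p = 0.00328). Sephs2, which makes the selenium donor, had a change of 0.22 (limma adjusted p = 0.0618), and of 0.25 in round spermatids (limma adjusted p = 0.141). Sephs2 passed in pachytene spermatocytes with median centring and with hybridization controls, and also without any 1 of young rats 2, 3 and 13.

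Of 12 regulators of the antioxidant response, 5 were higher and 2 lower in aged pachytene spermatocytes. Nfe2l2, the transcription factor NRF2, was 0.67 higher in aged pachytene spermatocytes (limma adjusted p = 0.0129) and 0.43 higher in aged round spermatids (limma adjusted p = 0.0116). The call in round spermatids did not hold without the 3 young rats (0.28, limma adjusted p = 0.0653). Foxo3, a transcription factor, fell by 0.93 in pachytene spermatocytes (limma adjusted p = 0.000566). Keap1, which holds NRF2 back, was 0.19 lower in aged round spermatids, a sign that turned with hybridization controls (0.11) and in the unscaled values (0.069). Without the 3 young rats it did not pass (-0.11, limma adjusted p = 0.127). In aged pachytene spermatocytes Keap1 was 0.27 higher (limma adjusted p = 0.013), and 0.12 higher without the 3 young rats (limma adjusted p = 0.0528). Of 16 genes for enzymes that make superoxide or peroxide, 2 rose and 3 fell in aged pachytene spermatocytes, among them Maoa, monoamine oxidase A, lower by 0.79 (limma adjusted p = 0.00128).

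The genes whose levels followed each member most closely over the arrays were ranked by the mean of 2 Pearson correlations, over the 12 pachytene arrays and over the 12 round spermatid arrays, among 13972 genes. Arrays share the age difference and the depth of the fraction, so the coefficients only describe. For Sod1 they were Rnf151 (0.99), Ndufa5 and Epb41l3 (0.98 each). For Gpx1 they were Ctsb (0.96), a lysosomal protease, Pla2g2d and Atp6ap1 (0.93 each). Sod2 was closest to Ift70a1 (0.92), Zfp367 and Mrpl39 (0.90 each), and Cat to Decr1 (0.89), Pam (0.88) and Cr1l (0.87). Sod3 was closest to Mbnl1, Ptn and Sh3bgrl1 (0.88 each). The bright Gpx4 probe set reached 0.82 with Speg, and Gpx3 reached 0.78 with Hs1bp3, the lowest leading value of the 7 genes.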

How the data were processed

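The values are log2 signals as deposited by the authors for 31099 probe sets on 24 arrays, and the method of probe summary was not given in the sources used here. The arrays carried biotin-labelled cRNA from column-purified total RNA, per the labels' protocols. The number of arrays limits the precision. Probe sets were named from the platform annotation, which gives 20826 of 31042 exactly 1 symbol. The members and lists were chosen with earlier results of these data known.

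After leaving out 57 control probe sets, arrays were quantile normalized within a cell type for the age comparisons. To compare cell types, 90.3 was added as an offset to the linear pachytene values, chosen so that 45 spiked and absent controls matched (mean difference between cell types 0.61 before and -0.03 after), and all 24 arrays were then quantile normalized. Folds of dim transcripts are compressed by it. Differences were fitted with limma 3.58.1 in R 4.3.3 (lmFit, eBayes) on all 31042 probe sets, with Benjamini-Hochberg adjustment over all of them and a threshold of 0.05. The fits were tested on simulated data.

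All member probe sets are described. A list gene is represented by its brightest probe set, and of each list up to 4 genes past the threshold with the smallest p may be named, with Ccs, Gsr and Sephs2 always given. Alternatives were median centring, the deposited scale, hybridization controls, no offset, a filter on the 40% dimmest probe sets, other variance models, array weights, left-out rats, each age alone, other probe sets and a replicate block. Same-numbered pachytene and round spermatid arrays correlated at -0.07 to 0.36 after removal of group means, above 0.1 in 8 of 12 numbers. In 6 of 12 numbers the same-numbered array was the best match among the round spermatid arrays of that age. The labels do not say that same-numbered arrays come from 1 rat, so they were not paired in the main fits. A rat here stands for 1 age and number, and leaving it out removed all its arrays from a fit.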

Additional observations from a re-analysis of the deposited data

Results flagged for a closer look

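The age change of Sod1 differed between the cell types by 0.91 on the log2 scale (-0.23 in round spermatids and -1.14 in pachytene spermatocytes, limma adjusted p = 0.0167), and that of Sod3 by 0.56 (0.04 and -0.52, limma adjusted p = 0.00367). Both were tested as an interaction over all 24 arrays. In round spermatids Sod3 stood only 1.005 (aged) and 0.96 (young) above the absent controls, so a fall there could be hard to see.

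Single arrays stood away from their group in 2 of 32 groups of 6 values, where chance gives about 1 in 20. Gpx1 in the pachytene fraction of aged rat 8 lay at 8.31, below the other 5 at 8.52 to 8.61. The bright Gpx4 probe set in the pachytene fraction of young rat 11 lay at 14.67, above the others at 14.55 to 14.59.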

How the results depend on the processing

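Counts are given as probe sets called, then members higher and lower, then other pathway genes higher and lower. In pachytene spermatocytes they were 11643, 1 and 3, 23 and 18. Median centring gave 2 members higher, the deposited scale 19153, 0 and 6, 5 and 49, hybridization controls 0 members higher and 12 and 36 pathway genes, and the fit without young rats 1, 10 and 11 gave 7598, 0 members higher and 12 pathway genes higher. In round spermatids they were 5320, 0 and 1, 14 and 11. Median centring gave 3546, 2 members lower, 7 and 7, the deposited scale 17172, 3 members higher, 50 and 4, hybridization controls 8716, 1 and 0, 36 and 2, and the fit without the 3 rats 1723, 0 members lower, 1 and 2. For the difference of the age change they were 4054, 2 and 0, 10 and 6. Median centring gave 11200, 1 member lower, 16 and 12, the deposited scale with the offset 25120, 7 members higher, 66 and 0, normalization within cell types 7089, 1 member lower and 11 pathway genes lower, the fit without the 3 rats 2581, and the mean over probe sets 10 pathway genes lower. Between cell types they were 26420, 5 and 3, 35 and 40. Median centring gave 3 members higher, the deposited scale 3 and 5, the filter on dim probe sets 16869 (fewer were tested), and aged rats alone 1 member lower. The causes of the other moves were not tested.

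Signs turned as follows. In pachytene spermatocytes the bright Gpx4 probe set became 0.33 with median centring (limma adjusted p = 0.00219). On the deposited scale Gpx3 became -0.37, the dim Gpx4 probe set -0.14, Gpx8 -0.21, Ggt1 -0.16, Secisbp2 -0.035, Foxo1 -0.17, Gss -0.079, Pstk -0.032 and Hao1 -0.0013. Centring on hybridization controls made the dim Gpx4 probe set -0.022, Gpx8 -0.090, Ggt1 -0.039 and Foxo1 -0.052. In round spermatids the deposited scale made Aox1 0.024, Keap1 0.069, Gclc 0.031 and Nfe2l1 0.058, and hybridization controls made them 0.064, 0.11, 0.070 and 0.097, and Atp7a 0.038. The difference for the dim Gpx4 probe set became 0.25 on the deposited scale. Between cell types Gpx1 became -0.24 and -0.30, and the dim Gpx4 probe set -0.036 and -0.094, with median centring and on the deposited scale. The dim Gpx4 probe set in place of the bright one gave levels of 8.11 and 7.81 in aged and young pachytene spermatocytes and 8.31 and 8.31 in aged and young round spermatids.

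Leaving out 1 rat gave 8955 to 12539 called in pachytene spermatocytes, 3610 to 6559 in round spermatids, 2322 to 4833 for the difference (2322 without aged rat 8 and 2442 without aged rat 5) and 26052 to 26286 between cell types. Pathway genes higher were 9 to 18 in round spermatids (9 without young rat 1, young rat 11 or aged rat 10) and 5 to 12 for the difference (5 without aged rat 8, 6 without aged rat 3 or 10). The calls of Sod1, Sod3 and Gpx1 with age in pachytene spermatocytes, and of Sod1 and Sod3 for the difference, held without any 1 rat.

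Aged and young rats share some numbers but are different animals, and their same-numbered arrays did not deviate together (r -0.58 to 0.02). With the number as a replicate block, which keeps the 6 of 12 arrays whose 3 numbers both ages share, 368 probe sets were called in pachytene spermatocytes, 0 members higher and 0 lower, 0 pathway genes higher and 1 lower, and in round spermatids limma called 0 in all (0 members, 0 and 0 pathway genes). At an unadjusted p under 0.05 limma gave 5914 probe sets, 3 of them members, in pachytene spermatocytes and 1498, 0 of them members, in round spermatids. Sod1 was then -0.67 (limma adjusted p = 0.205), Sod3 -0.71 (0.0567) and Gpx1 -0.39 (0.176) in pachytene spermatocytes. The block over same-numbered fractions changed no member call for the difference or between cell types (Sod1 difference 0.91, limma adjusted p = 0.0163).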
